A study of Mus musculus with 2 samples.

Results

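The Argonaute and TNRC6 genes encode the effector proteins of microRNA silencing. They are described here in Dicer_KO mouse embryonic stem cells (mESCs), which lack the enzyme that makes microRNAs. The members were chosen by gene name and comprise the 4 genes of the Argonaute clade (Ago1, Ago2, Ago3 and Ago4) and the 3 TNRC6 genes (Tnrc6a, Tnrc6b and Tnrc6c), 7 of the 43629 genes listed in the count tables. PolyA RNA was sequenced in 2 libraries of 1 group, replicate 1 at passage 7 and replicate 2 at passage 4. Both came from E14TG2a-derived cells of 129/Ola background, an established mESC line, and both carried a Dicer knockout made with paired CRISPR/Cas9 guides. The study made its mutants as clones grown from single cells in serum with LIF, with 2 different deletions in Dicer1, and which deletion each library carries is not in the labels. Wild-type libraries were not analysed here, so the data give the level of each gene without Dicer, its spread, and the difference between the libraries, but not an effect of losing Dicer. Passage, clone and deletion cannot be told apart in that difference.

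Argonaute proteins hold a small RNA and use it to find complementary messenger RNAs. When the guide is a microRNA, Argonaute recruits a TNRC6 protein (also called GW182), which binds Argonaute through glycine-tryptophan repeats and in turn brings in the poly(A)-binding protein and the CCR4-NOT and PAN2-PAN3 deadenylases. The messenger RNA then loses its tail, is decapped and is degraded. AGO2 is also the slicer of the family: it can cut a fully matched target with a tetrad of catalytic residues. By immunoblot, the study found AGO2 protein strongly reduced in both of its mutants, which it related to the lack of mature microRNAs. AGO1 protein did not differ from wild type there. The RNA levels below say nothing of protein levels, which were not measured in these files.

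The coding sequences show what separates the Argonaute members. Windows of 30 bases around the codons at the last places of the catalytic tetrad, the aspartate and the histidine that end it in AGO2, are printed 5′ to 3′ on the coding strand, with the codon in capitals. They come from the GENCODE M21 transcript of each gene and lie in coding exons on the minus strand of GRCm38. The other places, an aspartate and a glutamate, encode the same residues in all 4 genes and are not printed.
Ago1, aspartate place, chr4:126441901-126441930: atcttctaccgcGACggcgtccccgagggc
Ago2, aspartate place, chr15:73113720-73113749: atcttctaccgcGATggcgtctccgagggc
Ago3, aspartate place, chr4:126350867-126350896: atcttctatcggGATggtgtttcagaagga
Ago4, aspartate place, chr4:126507023-126507052: atctactaccgcGGAggggtatccgaggga
Ago1, histidine place, chr4:126439877-126439906: gcctactatgctCGCttggtggctttccgg
Ago2, histidine place, chr15:73107200-73107229: gcttactatgctCACctggtggccttccga
Ago3, histidine place, chr4:126346666-126346695: gcatattacgctCACctggtggcattcaga
Ago4, histidine place, chr4:126496784-126496813: gcatattatgccCGGcttgtggcattccgg
At the aspartate place, codon 670 of Ago2 counted from its start codon, the codon is for aspartate in Ago1, Ago2 and Ago3 and for glycine in Ago4. At the histidine place, codon 808 of Ago2, it is for histidine in Ago2 and Ago3 and for arginine in Ago1 and Ago4. Only Ago2 and Ago3 thus encode the full tetrad in these transcripts. The proteins they encode are 857 to 861 residues long and share 79.0% (Ago2 and Ago4) to 85.7% (Ago1 and Ago3) of aligned residues.

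The TNRC6 sequences differ from one another much more, with 45.6% to 49.8% identical residues over the aligned codons. All encode glycine-tryptophan pairs, but which of them bind Argonaute was not tested. For each gene, the first in-frame window of 30 bases within an exon that holds the most such pairs, in either order, is shown. The windows lie on the plus strand of GRCm38, with the codons of the pairs in capitals.
Tnrc6a, chr7:123170720-123170749, exon 6 of 24: aattctggaggaagtcgaagaGGATGGGGA
Tnrc6b, chr15:80880630-80880659, exon 8 of 25: GGATGGacttctgggaagaatGGTTGGGGC
Tnrc6c, chr11:117722488-117722517, exon 5 of 22: ccaagagttctgtctaacagtGGTTGGGGA
The windows hold 2, 3 and 2 adjacent glycine-tryptophan or tryptophan-glycine pairs. Overlapping pairs were counted separately, so a glycine-tryptophan-glycine run with a shared tryptophan counts as 2. The windows of Tnrc6a and Tnrc6c hold only such a run. Over the whole coding sequence, pairs counted in this way number 46 in Tnrc6a, 38 in Tnrc6b and 39 in Tnrc6c, and 0 in each Argonaute gene.

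The libraries had 41710122 (replicate 1) and 41566184 (replicate 2) counts on genes. Normalised CPM values are counts per M counts of the library after scaling by the TMM method, and 3 counts, the smallest number taken as detection, correspond to 0.0691 and 0.0752 CPM. Dicer1 (ENSMUSG00000041415), the targeted gene, had 1343 and 1510 counts, or 30.9 CPM (95% Wilson interval 29.3 to 32.6) and 37.8 CPM (36.0 to 39.8). Replicate 2 was 1.22-fold higher, and the intervals did not overlap. These counts cover the whole gene, so they include reads outside a deletion. The study reported a loss of Dicer mRNA in both mutants, which cannot be judged here without wild-type libraries. The mESC markers were all detected, with 39069 and 43025 counts of Pou5f1, 26499 and 21353 of Sox2 and 47522 and 26215 of Nanog. Genes whose scaled counts averaged 10 or more over the libraries, 17731 in all, are called the tested genes. Of the 6 mESC markers, 1 (Nanog) was beyond 1.5-fold higher in replicate 1, and their summed level was 3665 and 3441 CPM. The 9 markers of differentiated lineages summed to 66.8 and 64.8 CPM, of which Nes made 40.8 and 46.4, and the other 8 summed to 26.0 and 18.4 CPM. Beyond 1.5-fold, 3 of the 6 tested were higher in replicate 1, where 23.4% of all tested genes were, and 1 was lower, where 16.2% were. The higher genes were Gata4 (586 and 318 counts), Gata6 (16 and 5) and Eomes (334 and 151), and the lower one was Pax6 (164 and 246). The 6 fibroblast markers summed to 19.6 and 16.5 CPM, nearly all from Thy1, with Postn at 0 in both, Dcn at 0 in replicate 1 and Col3a1 at 0 in replicate 2. The libraries stood apart on chromosome 15, which carries Ago2 and Tnrc6b and is described with them. In bulk RNA, fewer cells of a type and less RNA per cell cannot be told apart, and the part of these marker differences in the ratios below was not tested.

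Among the Argonaute genes, Ago1 and Ago2 were abundant, Ago3 was low and Ago4 was the lowest, at a few CPM. To compare genes, levels are given per length, as reads per kilobase of the exon union per M counts (RPKM). The exon union is every base that lies in an exon of any annotated transcript.

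Ago2 (ENSMUSG00000036698, chr15:73095844-73184935, minus strand), the slicer, had 26645 counts in replicate 1 and 18938 in replicate 2. This was 613 CPM (606 to 621) and 475 CPM (468 to 481), with a mean of 544 ± 98.2 CPM (SD, n = 2). Per length, the level was 43.7 and 33.8 RPKM, a mean of 38.8 ± 7.00 RPKM, above 92.0% of the tested genes. It was higher in replicate 1, and the counting intervals of the libraries did not overlap. The 3′ part of its exons overlaps Chrac1, a gene on the opposite strand, over 219 bases (1.56% of the exon union).

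Ago1 (ENSMUSG00000041530, chr4:126435012-126468583, minus strand), which binds microRNAs but lacks the histidine of the tetrad, had 13101 and 11478 counts. Its level was 302 CPM (296 to 307) and 288 CPM (282 to 293), or 37.1 and 35.4 RPKM (36.3 ± 1.22, SD, n = 2). The libraries lay close together, with a coefficient of variation of 3.36% against a median of 21.8% over the tested genes. Ago1 was above 91.3% of the tested genes per length.

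Ago3 (ENSMUSG00000028842, chr4:126331704-126429556, minus strand) encodes the full tetrad but was far below Ago2, with 1504 and 2008 counts. The level was 34.6 CPM (32.9 to 36.4) and 50.3 CPM (48.2 to 52.6), or 2.09 and 3.04 RPKM (2.56 ± 0.669). Replicate 2 was 1.45-fold higher. Ago3 stood near the middle of the tested genes, above 39.9% of them.

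Ago4 (ENSMUSG00000042500, chr4:126489541-126533472, minus strand), which lacks both the last aspartate and the histidine of the tetrad, had 141 and 67 counts. The level was 3.25 CPM (2.75 to 3.83) and 1.68 CPM (1.32 to 2.13), or 0.467 and 0.242 RPKM (0.354 ± 0.160). It was detected in both libraries, well above the floor of 3 counts, yet only 14.3% of the tested genes were lower per length.

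The TNRC6 genes were all expressed. Tnrc6a (ENSMUSG00000052707, chr7:123123885-123195296, plus strand) had 12081 and 12858 counts, or 278 CPM (273 to 283) and 322 CPM (317 to 328). Per length it was the highest of the family, at 21.9 and 25.4 RPKM (23.6 ± 2.45, SD, n = 2). Its exons share 143 bases with Gm45846, a non-coding gene on the same strand in GENCODE M21.

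Tnrc6b (ENSMUSG00000047888, chr15:80711313-80941085, plus strand) had 12693 and 11467 counts, 292 CPM (287 to 297) and 287 CPM (282 to 293). This made 12.3 and 12.1 RPKM (12.2 ± 0.146), the closest pair of values among the members, with a coefficient of variation of 1.19%. Tnrc6c (ENSMUSG00000025571, chr11:117654289-117763439, plus strand) had 5211 and 5556 counts, 120 CPM (117 to 123) and 139 CPM (136 to 143). Its level was 9.34 and 10.8 RPKM (10.1 ± 1.06). Tnrc6b and Tnrc6c were above 72.8% and 68.4% of the tested genes.

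**Figure D1:**
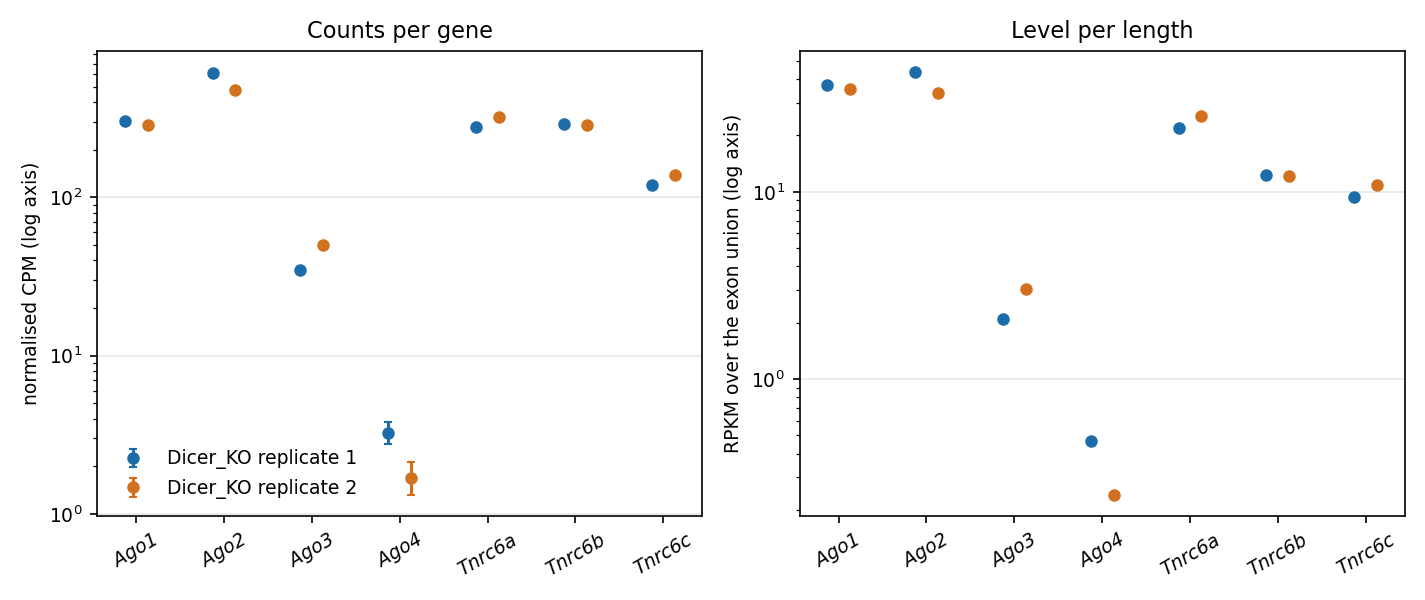
Level of each Argonaute and TNRC6 gene in the Dicer_KO libraries, as normalised CPM with 95% Wilson intervals of counting error (left, bars smaller than the point except for Ago4) and as RPKM over the exon union (right), both on log axes. Ago1 and Ago2 lie between 33.8 and 43.7 RPKM, the TNRC6 genes between 9.34 and 25.4, Ago3 at 2.09 and 3.04, and Ago4 at 0.467 and 0.242.

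Ordered per length by the mean of both libraries, the genes ran Ago2, Ago1, Tnrc6a, Tnrc6b, Tnrc6c, Ago3 and Ago4. The ranges of neighbouring genes did not overlap in 5 of the 6 steps. The exception was Ago2 and Ago1, where Ago2 was 1.18-fold the level of Ago1 in replicate 1 and 0.955-fold in replicate 2, so their order was not resolved. The step from Tnrc6b to Tnrc6c was small, 1.21-fold between the means, and that from Ago1 to Tnrc6a was 1.54-fold. The widest steps were from Tnrc6c to Ago3, 3.94-fold, and from Ago3 to Ago4, 7.23-fold. No test accompanies the order, since the smallest exact two-sided p that 2 paired libraries allow is 0.5.

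Exon unions credit long untranslated ends, which differ among the members: the coding sequence takes 16.5% of the Ago3 transcript used here and 69.5% of that of Tnrc6a. With the length of the longest transcript, or of the transcript with the longest coding sequence, Ago1 came first and Ago2 second. The rest of the order of means was as above in all 6 settings of length and library. With either of these lengths, however, Tnrc6a came close to the pair, at 36.7 RPKM against 39.4 for Ago2 and 40.8 for Ago1. The ranges of neighbouring genes were then apart in 4 of the 6 steps, so the step to Tnrc6a depended on the length used. Exactly identical stretches of 100 bases were few, and stretches with mismatches were not counted. Of the 100-base windows of the Ago1 transcript, 71 (0.996%) occur in Ago3 as well, and Ago4, Tnrc6b and Tnrc6c share none with any other gene. Of Ago2's windows, 0.978% occur in Chrac1 or the processed pseudogene Gm6088. With windows of 50 bases, 3.52% of those of Ago2 occur in other genes, among them Ago1 and Chrac1. Of the 50-base windows of Tnrc6b, 0.312% occur in other genes, 121 in all, while Ago4 and Tnrc6c again share none.

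Ago1 and Ago2 led the Argonaute family and Tnrc6a the TNRC6 family in both libraries, but the order of Ago1 and Ago2 and the shares of the minor members differed. The Argonaute genes summed to 83.4 RPKM in replicate 1 and 72.5 in replicate 2 (78.0 ± 7.71, SD, n = 2). Ago2 made 52.4% and 46.6% of this and Ago1 44.5% and 48.8%, so the pair held nearly all of the family's messenger RNA per length. Ago3 contributed 2.505% and 4.19%, a larger share in replicate 2, and Ago4 0.560% and 0.333%, a larger share in replicate 1. The TNRC6 genes were more even, with 50.2% and 52.5% from Tnrc6a, 28.3% and 25.1% from Tnrc6b and 21.4% and 22.4% from Tnrc6c. They summed to 43.6 and 48.3 RPKM (45.9 ± 3.37). The Argonaute sum was therefore 1.91 times the TNRC6 sum in replicate 1 and 1.5 times in replicate 2 (1.71 ± 0.293), a ratio that was 1.30 with the length of the longest transcript.

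**Figure D2:**
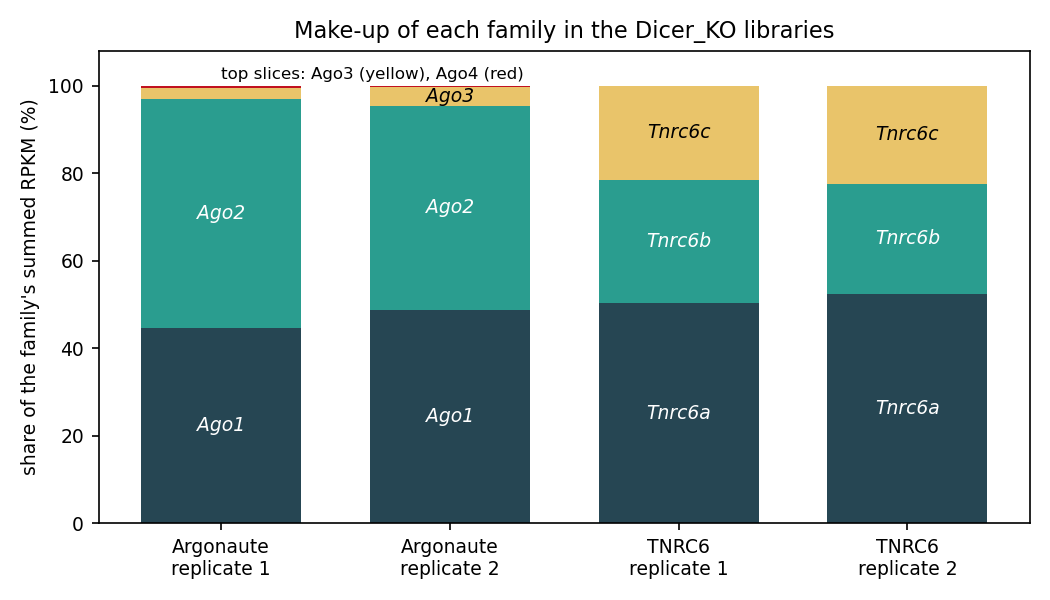
Share of each gene in the summed RPKM of its family, in percent, for each Dicer_KO library. Ago1 and Ago2 fill all but a narrow band of the Argonaute bars, and Tnrc6a takes 50.2% and 52.5% of the TNRC6 bars.

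The PIWI clade, the germline branch of the Argonaute superfamily that binds piRNAs, was low next to Ago1 and Ago2. Piwil2 had 1420 and 905 counts (6.18 and 4.29 RPKM), above Ago3 per length in both libraries. Piwil1 had 28 and 17 counts, and Piwil4 had 2 and 15. Piwil1 and Piwil2 passed the count minimum, with log2 ratios of replicate 1 over replicate 2 of 0.57 and 0.53, just inside 1.5-fold. This depended on the scaling. Of the 2 genes, 0 were beyond 1.5-fold with TMM, where 23.4% of the tested genes were higher beyond it, 1 with TMM leaving out chromosome 15 (23.8% of the tested genes) and 2 with total counts (27.25%) or raw counts (27.35%).

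The difference between the libraries was taken as the log2 ratio of replicate 1 over replicate 2, on TMM-scaled counts with a pseudocount of 1, for all genes of the table. With 1 library at each passage there is no replicate check and no p-value. The intervals given are exact 95% binomial intervals for counting error only, since the reads carry no molecular identifiers. All 7 members were among the tested genes. Beyond 1.5-fold, 1 member (Ago4) was higher in replicate 1, where 23.4% of all tested genes were, and 0 members were lower, where 16.2% of all tested genes were. Of the 6 members that averaged 1000 or more counts, all but Ago4, 0 were beyond 1.5-fold either way, against 22.2% of the genes at that level.

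Ago4 had a log2 ratio of 0.94 (0.52 to 1.39), or 1.92-fold (1.44 to 2.63), the largest and least precise of the members. Ago2 had a ratio of 0.37 (0.34 to 0.40). Ago3 went the other way, at -0.54 (-0.64 to -0.44). The ratio of Ago1 was 0.07 (0.03 to 0.10).

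The TNRC6 ratios lay between -0.21 and 0.02. Tnrc6a stood at -0.21 (-0.25 to -0.18) and Tnrc6c at -0.21 (-0.27 to -0.16). Tnrc6b, at 0.02 (-0.01 to 0.06), was the only member whose interval held a ratio of 1. An interval that leaves out 1 was found for 73.3% of all tested genes, so such an interval does not set the members apart. The median absolute log2 ratio was 0.21 for the members, 0.44 for all tested genes and 0.31 for those averaging 1000 or more. The directions of all 7 ratios were the same under the 5 scalings tried, although scaling by total counts moved the median ratio of all genes from 0.02 to 0.13.

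**Figure D3:**
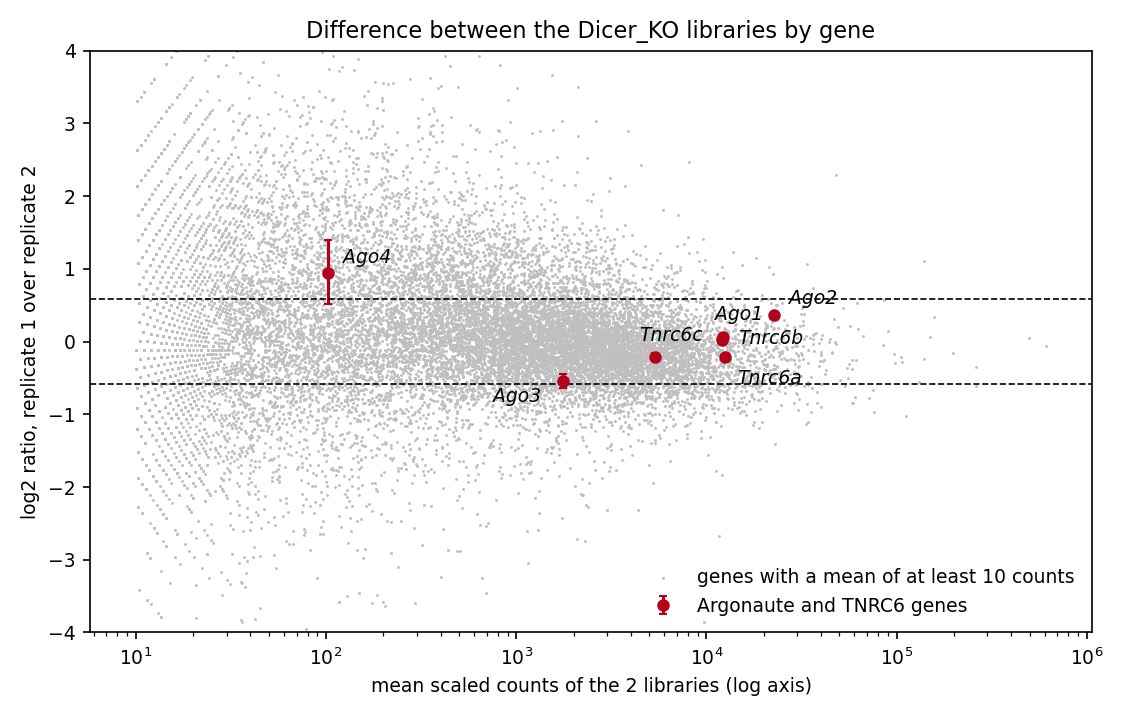
Log2 ratio of replicate 1 over replicate 2 against the mean scaled counts (log axis) for the tested genes (grey) and for the Argonaute and TNRC6 genes (red, with 95% counting intervals). Dashed lines mark 1.5-fold, and genes beyond a log2 ratio of 4 either way are outside the plot. Ago4, at 0.94, is the only member outside the lines.

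Ago2 and Tnrc6b lie on chromosome 15, 7526 kb apart, where the libraries differed as a whole. The median log2 ratio of its 680 tested genes was 0.59, and 83.7% of them were above the median of all tested genes. On the other 18 autosomes the medians ran from -0.09 to 0.08. Both members were below the median of their chromosome, Ago2 by 0.22 and Tnrc6b by 0.57 on the log2 scale, and 35.1% and 16.9% of the chromosome's tested genes had lower ratios. Among the 315 genes of chromosome 15 that averaged 1000 or more counts, a level chosen after seeing the data, the median was 0.50, with 40.3% below Ago2 and 15.9% below Tnrc6b. The part of the chromosome in the ratio of Ago2 was not tested.

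The neighbours of Ago2 also had ratios above 0. The 3 nearest tested protein-coding genes on each side had a median log2 ratio of 0.72 (0.30 to 2.55), 6 of 6 above 0 and 5 of 6 above Ago2. Genes that overlap a member, such as Chrac1 here, were not counted as neighbours. Trappc9, which encodes a subunit of a vesicle-tethering complex, had 2375 and 1071 counts (log2 ratio 1.03). Ptk2, the focal adhesion kinase gene on the other side of Ago2, had 5562 and 3704 (0.46). Dennd3, the highest of the neighbours, had 825 and 129 (2.55).

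Around Tnrc6b, the 6 neighbours had a median of 0.33 (-0.52 to 0.75), and 5 of 6 were above Tnrc6b. Adsl, an enzyme gene of purine synthesis that lies 7.40 kb away, had 5148 and 4379 counts (0.11). Several of the others, such as Grap2 with 21 and 28 counts, were too low for a precise ratio.

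Ago3, Ago1 and Ago4 lie side by side within 202 kb of chromosome 4, all on the minus strand, with 5.46 kb between Ago3 and Ago1 and 20.96 kb between Ago1 and Ago4. Their ratios differed from one gene to the next, at -0.54, 0.07 and 0.94, and their counting intervals did not overlap. The median of chromosome 4 was 0.05. Ago3 was above 18.4% of its genes, Ago1 above 51.3% and Ago4 above 84.1%. Clspn, the checkpoint mediator gene next to Ago4, had 2333 and 2527 counts (-0.24). None of the 6 neighbours of Ago4, which include Ago1 and Ago3, had a higher ratio than Ago4, and 2 of the 6 were above 0. The highest of them, Tekt2, had 219 and 111 counts (0.85), a ratio within the counting interval of Ago4 (0.52 to 1.39).

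Tnrc6a and Tnrc6c sat below the middle of their chromosomes. On chromosome 7, with a median of 0.08, 30.4% of the tested genes were below Tnrc6a, whose 6 neighbours had a median of -0.26. On chromosome 11, with a median of 0.07, 32.5% were below Tnrc6c, whose neighbours had a median of -0.02. Both members averaged more than 1000 counts. Among genes averaging 1000 or more, a level chosen after seeing the data, the medians were -0.06 on chromosome 7 and -0.10 on chromosome 11. Tnrc6a and Tnrc6c, both at -0.21, were below these too, by a smaller distance.

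**Figure D4:**
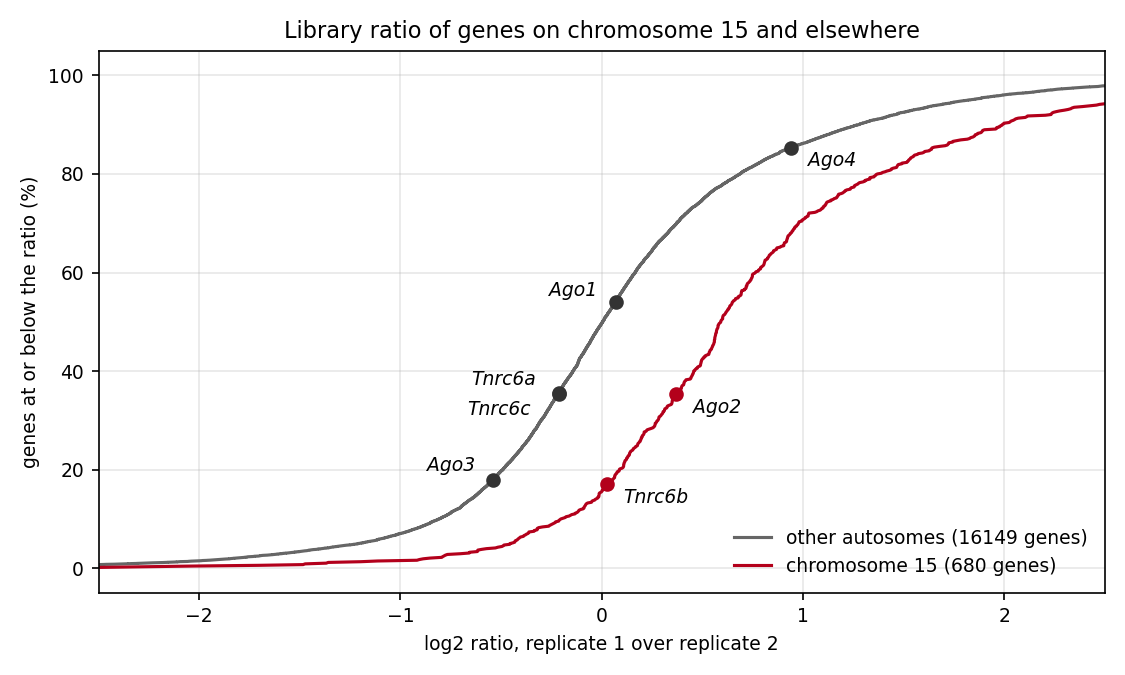
Cumulative share of tested genes, in percent, at or below each log2 ratio of replicate 1 over replicate 2, for chromosome 15 (red) and for the other autosomes together (grey), with the members as points on the curve of their class. The chromosome 15 curve lies to the right, with its median at 0.59, and Ago2 and Tnrc6b sit in its lower part.

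Few genes of the machinery around the Argonaute and TNRC6 proteins were beyond 1.5-fold. Of the 54 tested genes in 5 partner lists, 3 were beyond 1.5-fold higher in replicate 1 (5.56%, against 23.4% of all tested genes) and 4 were lower (7.41%, against 16.2%). Their median log2 ratio was -0.16, with 0.02 over all tested genes. Most partners are abundant, and 22.2% of the genes averaging 1000 or more counts were beyond 1.5-fold in either direction. The median ratio of all genes at that level was not taken, so 0.02 is not a background at the partners' level. At 1000 or more counts, the medians of chromosomes 4, 7 and 11 were -0.10, -0.06 and -0.10, and that of chromosome 15 was 0.50.

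In microRNA biogenesis, 1 of 6 genes was higher in replicate 1 beyond 1.5-fold and 0 were lower, with a median of -0.13. The higher gene was Prkra, a double-stranded RNA-binding partner of DICER, with 747 and 387 counts (0.82). Drosha, the nuclease that releases microRNA precursors, had 12509 and 9041 counts (0.35) and lies on chromosome 15. Xpo5, the exporter of precursors, had 5249 and 6883 (-0.51). Dgcr8, the partner of DROSHA, had 3316 and 3616 (-0.25).

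The chaperones that help load Argonaute had a median log2 ratio of -0.31. All 9 had ratios below 0 with TMM, and 8 of 9 did with total counts, where Fkbp4 was above 0. The share of all tested genes below 0, or of genes as abundant as these, was not taken. The number of chaperones below 0 thus cannot be set against a background. Beyond 1.5-fold, 1 was lower and 0 were higher. The lower gene was Hspa8, the constitutive HSC70 chaperone, with 18125 and 30526 counts (-0.87). Hsp90ab1, the most abundant of the list, had 240752 and 282167 (-0.35).

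Among genes that modify or bind Argonaute, 0 of 13 were higher and 2 were lower beyond 1.5-fold, with a median of -0.14. These were Ajuba, a LIM-domain protein gene, with 5182 and 7831 counts (-0.72), and Ipo8, an importin gene, with 4219 and 6114 (-0.66). Limd1, also of the LIM-domain group, had 1117 and 698 (0.56). Trim71, a ubiquitin ligase gene of stem cells, had 11537 and 15270 (-0.53), and the helicase gene Mov10 had 25211 and 20331 (0.19).

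In the deadenylation list, 1 of 15 genes was higher and 1 was lower, with a median of -0.17. Tob1, an adaptor of the CCR4-NOT complex, had 3480 and 2010 counts (0.67). Cnot6, a catalytic subunit, had 10092 and 15260 (-0.72), while the scaffold gene Cnot1 had 21795 and 26772 (-0.42). Pabpc1, the poly(A)-binding protein gene, had 107389 and 66648 (0.57) and lies on chromosome 15.

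Of the 11 decapping and decay genes, 1 was higher and 0 were lower, with a median of -0.04 that became 0.07 under scaling by total counts. The higher gene was Dcp1b, a decapping cofactor, with 759 and 416 counts (0.74). Ddx6, the helicase that links CCR4-NOT to decapping, had 13286 and 16288 (-0.42), and Xrn1, the 5′ to 3′ exonuclease gene, had 4767 and 3858 (0.18). Counting members and partners together, 5 listed genes lie on chromosome 15 (Ago2, Tnrc6b, Drosha, Tarbp2 and Pabpc1). Of these, 4 had a ratio above 0. On the whole chromosome, 83.7% of the tested genes were above 0.02, the median of all tested genes. Of the 5, 0 were above the chromosome's median of 0.59. All 5 averaged more than 1000 counts, and at 1000 or more that median was 0.50, with Pabpc1 (0.57) above it.

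**Figure D5:**
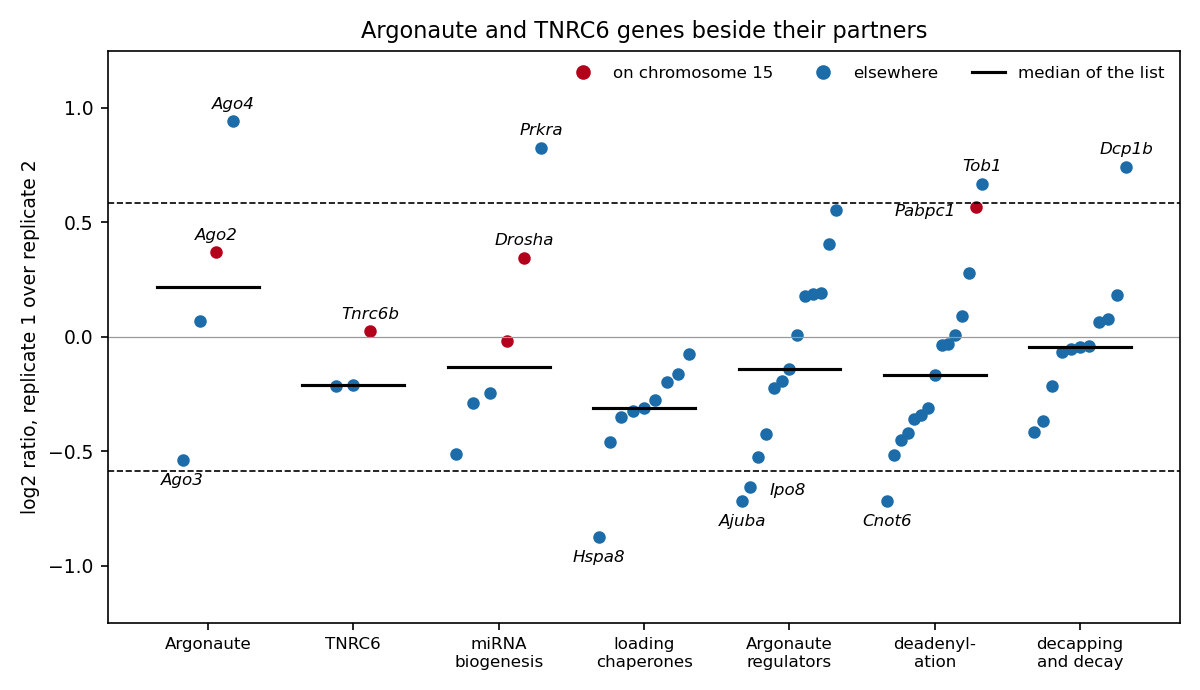
Log2 ratio of replicate 1 over replicate 2 for the Argonaute and TNRC6 genes and the tested genes of 5 partner lists, 1 point per gene, with the median of each list (black line) and 1.5-fold (dashed lines). Red points lie on chromosome 15, and the 8 genes outside the lines are Ago4, Prkra, Tob1 and Dcp1b above and Hspa8, Ipo8, Ajuba and Cnot6 below.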

How the data were processed

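PolyA RNA of 2 Dicer_KO mESC libraries was prepared with the TruSeq kit (reverse-stranded per the labels). Per the study's methods and the labels, the authors trimmed with Trimmomatic, aligned to mm10 (GRCm38) with STAR (version 2.4.2a), keeping reads with many hits, and assigned reads to Ensembl genes with featureCounts (version 1.4.5-p1), ignoring those where genes overlap. Raw counts per gene, without normalization, were deposited. The strand setting of featureCounts and its treatment of reads with several hits are not given in the sources used here, so counts over near-identical stretches and opposite-strand overlaps are uncertain. The labels do not say whether the libraries came from separate cultures.

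Here, counts were scaled by TMM in edgeR (version 4.0.16, R 4.3.3). Positions, lengths and sequences came from GENCODE M21, a later annotation release than that of the counts, with an entry for 42462 of 43629 genes. Log2 ratios used a pseudocount of 1, and genes averaging 10 or more scaled counts, annotated or not, were tested against a fold of 1.5. The share of tested genes below a member per length used only those with an annotated length. With 1 library per arm no model was fitted. Intervals (Wilson for CPM, Clopper-Pearson for ratios, scipy 1.17.1) cover counting error. Sequences were aligned with Biopython (version 1.88). Steps were tested on simulated data.

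The members, lists and alternatives were chosen with earlier results of these data known. Genes named are Dicer1, the members, genes of the lists (preferably beyond 1.5-fold or at a list's ends) and the 3 nearest tested protein-coding genes on each side of a member. Neighbours were taken among genes that do not overlap the member. Alternatives were DESeq2 size factors (version 1.42.0), total and raw counts, TMM without chromosome 15, another pseudocount, count minimum, fold, gene length and number of neighbours, and leaving out each library.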

Additional observations from a re-analysis of the deposited data

How the results depend on the processing

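Of 256 alternative values over 43 results, 187 stayed within the tolerance set for each, and 69 moved further. The tolerance was 0.1 on the log2 scale for medians, 1 SD of the libraries for levels and shares and 1.5 times for counts. For the ratio of a member it was the counting interval of that ratio, which is widest for Ago4. The 187 include every value that left out 1 library, which could not move further. They also include levels per length outside other genes' exons for members without such overlap, which could not change. The 187 are therefore not a measure of stability. In 6 cases a median near 0 changed sign, and 0 of these were ratios of members. The decapping and decay list went from -0.04 to 0.07 with total counts and 0.08 with raw counts, and all tested genes from 0.02 to -0.01 at a mean of 100 or more counts. At 1000 or more, the medians of chromosomes 4, 7 and 11 went from 0.05, 0.08 and 0.07 to -0.10, -0.06 and -0.10. The number of members higher in replicate 1, 1 at 1.5-fold, was 2 beyond a 25% difference and 0 at 2-fold, and the number lower, 0 at 1.5-fold, was 1 beyond 25%. Of the 54 partner genes, 3 were higher at 1.5-fold, where 23.4% of all tested genes were. With total counts 5 were higher (27.25% of all tested genes), with raw counts 5 (27.35%), beyond 25% 7 and at 2-fold 0. The number of partners lower was 4 at 1.5-fold, 17 beyond 25% and 0 at 2-fold. The shares of all tested genes beyond 25% and at 2-fold were not taken. The counts of members and partners at those folds thus cannot be set against a background. The median of chromosome 15 was 0.59, and became 0.71 with total counts, 0.71 with raw counts and 0.22 without the count minimum, which lets in genes with few or no counts. The TNRC6 sum of 45.9 RPKM became 64.6 with the length of the longest transcript and 68.0 with that of the coding transcript, the latter chosen after seeing the data. The ratio of the Argonaute sum to the TNRC6 sum, 1.71, became 1.30 and 1.23. Leaving out 1 of the 2 libraries gave 30.9 to 37.8 CPM for Dicer1, 72.5 to 83.4 RPKM for the Argonaute sum, 43.6 to 48.3 for the TNRC6 sum and 1.5 to 1.91 for their ratio. With 2 libraries such a value always lies within 1 SD of the mean, so these ranges say nothing of stability. No paired analysis was possible because there is only 1 group. Ago4, with 141 and 67 counts, had the widest counting interval of the members, and no member's ratio has a replicate check.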
